A study of Rattus norvegicus with 14 samples.

Results

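The zinc finger genes described here are those whose symbol starts with Zfp, Znf, Zbtb, Zscan or Zkscan followed by a digit. They were taken from lists of sperm methylation regions by the gene name that the deposited tables give to each region, which is that of the nearest promoter and not always that of the gene holding the region. The rule found 190 of 8555 listed regions, in 99 of 5019 separate loci (a locus is a run of regions that overlap by at least 1 bp), near 76 of 3797 named genes. Of the 76 genes, 64 are Zfp or Znf genes with 147 regions, 9 are Zbtb genes with 34 regions, 2 are Zscan genes with 6 regions and 1 is a Zkscan gene with 3 regions. The symbol rule also takes a few proteins that are not DNA-binding factors, such as Zfp36 (tristetraprolin, which binds messenger RNA), Zfp598 (a ubiquitin ligase of ribosome quality control) and Zfp593 (a ribosome assembly protein).

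All animals were male Wistar rats of the parental generation, and all libraries came from sperm DNA read by reduced representation bisulfite sequencing, which samples CpG-rich restriction fragments. There were 3 control libraries (left with the dam, standard chow), 4 of high-fat diet (HFD), 4 of early-life stress by maternal separation on standard chow (ELS), and 3 of separated animals later put on the high-fat diet (ELS-HFD). Separation lasted 3 h a day over 16 days from postnatal day 1, every group went through an elevated plus maze at about postnatal day 57, and the diets began at postnatal day 60. The age at sperm collection, litters and animals are not given, so the limma p-values below measure the spread between these libraries. Errors are SDs over the libraries. The q-values are those of the authors' region caller and do not measure that spread.

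C2H2 zinc finger proteins form the largest family of mammalian transcription factors, and each finger contacts a few bases of DNA. Many carry a KRAB domain, which recruits the corepressor TRIM28 and, through it, histone and DNA methylation to transposons and imprinted loci. Zbtb proteins carry a BTB domain, which dimerises and binds corepressors such as NCoR, and Zscan and Zkscan proteins carry a SCAN domain, which pairs them with one another. A typical gene of the family encodes its whole finger array in the last exon. In sperm most of the genome is methylated, whereas CpG-rich promoters are largely free of methylation.

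Regions annotated as promoters fell near 13 member genes, and 12 of these had a promoter in the RefSeq table (GRCr8), as had 63 of all 76 members. The 250 bases before the RefSeq start site are shown for 4 of them. By deposited distance, their listed regions lie less than 250 bp before the Rnor_6.0 start site. They cover both ends of the scale, nearly unmethylated (Zfp593, Zfp37 and Zfp692) and heavily methylated (Zkscan5). Capitals mark each CG, which reads the same on both strands and is the site that bisulfite sequencing measures. The windows were matched by symbol, since the regions themselves are placed on another build (Rnor_6.0). The start site may differ between the builds, so a window need not hold the listed region.
Zkscan5: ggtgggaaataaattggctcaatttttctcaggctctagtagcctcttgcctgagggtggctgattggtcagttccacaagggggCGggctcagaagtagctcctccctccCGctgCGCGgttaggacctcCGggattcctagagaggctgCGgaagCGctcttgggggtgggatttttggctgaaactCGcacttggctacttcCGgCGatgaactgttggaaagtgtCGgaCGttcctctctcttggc
Zfp593: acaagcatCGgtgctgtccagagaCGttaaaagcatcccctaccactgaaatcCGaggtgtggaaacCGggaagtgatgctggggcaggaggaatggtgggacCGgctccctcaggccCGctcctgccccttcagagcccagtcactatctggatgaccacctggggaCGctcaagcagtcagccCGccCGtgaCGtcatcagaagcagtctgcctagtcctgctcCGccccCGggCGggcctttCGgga
Zfp37: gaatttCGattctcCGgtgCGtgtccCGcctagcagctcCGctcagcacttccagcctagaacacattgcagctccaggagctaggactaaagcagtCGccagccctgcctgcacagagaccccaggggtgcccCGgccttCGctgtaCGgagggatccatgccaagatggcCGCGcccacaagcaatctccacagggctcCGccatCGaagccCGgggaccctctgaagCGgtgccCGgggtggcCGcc
Zfp692: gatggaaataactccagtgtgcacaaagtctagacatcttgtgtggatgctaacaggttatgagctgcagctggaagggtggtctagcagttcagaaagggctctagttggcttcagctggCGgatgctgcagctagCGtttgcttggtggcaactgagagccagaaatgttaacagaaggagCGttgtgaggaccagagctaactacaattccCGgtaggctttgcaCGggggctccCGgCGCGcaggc
The Zkscan5 window is chr12:14519538-14519787 on the minus strand and holds 12 CGs, a number reached by 31.5% of the 33469 promoter windows of the same length in the table. That of Zfp593 (chr5:151748725-151748974, minus) holds 14, reached by 27.6% of windows, and that of Zfp37 (chr5:80654206-80654455, minus) holds 17, reached by 21.9%. The Zfp692 window (chr10:42988696-42988945, plus) holds 8, reached by 41.6%. The median was 14.5 CGs over 80 windows of the matched member genes and 5 over all windows. Listed regions near Zkscan5 were methylated at 73.7 to 79.9% on average in the groups compared, and those near Zfp692 and Zfp593 averaged below 4% in every group. A listed Zkscan5 region counts 11 CpGs in 35 bp, while the whole window holds 12 CGs. The windows may therefore not hold the listed regions, and their CG numbers are not set against the methylation levels.

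The tables give a percent methylation for each region and library without read counts, so the depth behind every value is unknown and no interval is given. Over the regions, libraries of one group correlated with r between 0.960 and 0.976. As a look at the tissue, the listed regions near imprinted genes with maternal methylation, which sperm lacks, had a median of 3.26% (28 regions near 4 of 12 genes). Many of them lie at or near promoters, where all listed regions had a median of 2.60%. Their low values therefore do not by themselves identify sperm. The regions near these imprinted genes were not uniformly low, since near Zrsr1 exonic regions stood at 9.37 and 13% and an intronic one far upstream at 20.2 to 21.5%. The germline gene Dazl stood at 3.11 and 4.37% and the paternally methylated Zdbf2 at 96.8%. Dlk1, also counted among imprinted genes with paternal methylation, stood at 16.2% in an intron, 8631 bp from its start. The other 8 germline and 3 paternal marker genes were not listed. ELS library 2 was the lowest of its group in 53.6% of member regions (44.1% of all listed regions), and ELS-HFD library 1 was the highest of its group in 51.8% (43.2% of all); libraries are numbered here by column order, not by label. Without ELS library 2 the median member difference was -1.76 points in ELS against control (from -2.74) and -4.52 in ELS-HFD against ELS (from -3.73), and without ELS-HFD library 1 it was -3.95, -3.26 and -3.57 in the comparisons of ELS-HFD with control, HFD and ELS. For called regions and for differences of at least 10 points the range with 1 library left out is given below.

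The zinc finger regions lay in exons more often than listed regions in general. Of the 190, 81 (42.6%) were exonic against 24.8% of all listed regions, 54 (28.4%) were intergenic against 37.6%, 22 (11.6%) were at promoters against 14.2%, 19 (10%) were intronic against 19.7% and 14 (7.37%) were at a transcript end against 3.53%. Where the annotated transcript has at least 2 exons, 40 of 77 exonic member regions (51.9%) were in its last exon, near 17 genes, compared with 28.5% of exonic regions in general. Counted as loci the shares were 22 of 39 (56.4%) and 27.5%. These shares describe which regions were listed, and no test was made of them. In total 97 members (51.1%) lay within 5000 bp of the start site, 36 were intergenic and further away, and the furthest, near Zfp536, lay 137975 bp from it. In 35 of the 136 members inside a transcript, that transcript was not the one with the nearest promoter, and 1 member region was on the X chromosome.

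Levels differed by position. The median methylation was 2.16% at promoters, 8.87% in exons, 7.73% in introns, 23.9% between genes and 27.9% at transcript ends, beside 2.60, 12.7, 14.7, 19.5 and 20.4% for all listed regions of the same annotation. Member regions in the last exon of an annotated transcript with at least 2 exons had a median of 5.10%, with 75.0% below 10%. All listed last-exon regions of such transcripts had a median of 16.0%, with 41.1% below 10%. The annotated transcript was not always that of the member gene. Near Zfp777 and Zfp212 such regions lie 18343 and 14601 bp before the start site of the member. Zbtb regions were more methylated (median 40.0%) than Zfp and Znf regions (8.02%), as the plot of levels by annotation shows. The Zbtb regions repeat 12 loci, and the promoter regions all belong to Zfp and Zkscan genes. The families were therefore not compared at like positions. At promoters 18 of 22 regions were below 10%, and the 3 above 50% all belonged to Zkscan5.

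**Figure D1:**
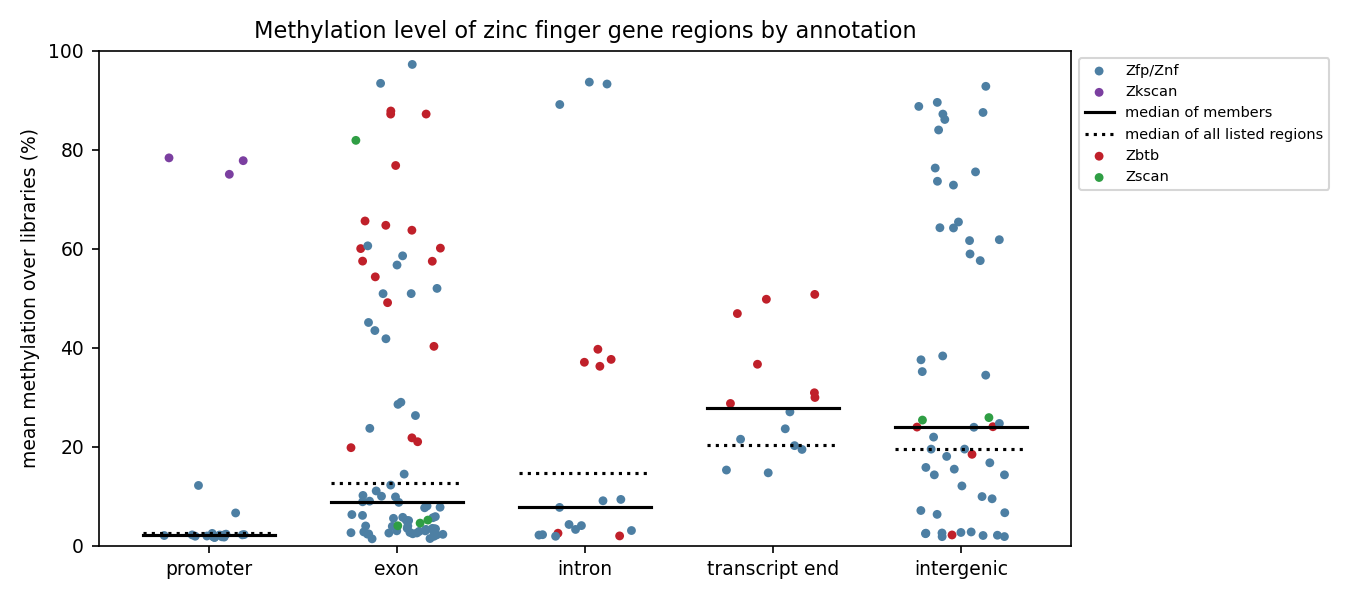
Mean methylation (percent, over the libraries of the comparison) of each of the 190 zinc finger regions, by annotation and coloured by gene family, with the median of members (solid line) and of all listed regions (dotted line). Promoter regions sit near the bottom at a median of 2.16% except for the 3 Zkscan5 points, and Zbtb points fill the range around their median of 40.0%.

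Each region entered a table because the region caller found a difference between the 2 groups, so the direction and the separation of libraries in that same table were in part fixed by the listing, and p-values over libraries are biased towards a difference. By the q-value of the authors' deposited tables (threshold 0.05) 2 member regions were called, 1 near Zfp503 in HFD against control (background 0.632% of listed regions) and 1 near Zfp219 in ELS-HFD against ELS (background 0.686%). None was called in ELS against control (background 0.919%), ELS-HFD against control (0.696%) or ELS-HFD against HFD (0.423%). With limma on a log-ratio scale and Benjamini-Hochberg adjustment over all listed regions, no member passed an adjusted p of 0.05 in any comparison, where 2 of 1867 regions (0.107%) did in ELS-HFD against control and none elsewhere. The smallest adjusted p of a member by limma was 0.0952, in ELS against control. At an unadjusted limma p under 0.05 there were 7, 9, 17, 9 and 11 members in HFD, ELS and ELS-HFD against control, ELS-HFD against HFD and ELS-HFD against ELS, with backgrounds of 22.8, 26.9, 27.9, 25.2 and 27.3% of listed regions.

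By direction, 127 member differences were negative and 63 positive, with a range of -18.5 to 11.9 percentage points, and 16 reached 10 points. In HFD against control 18 of 38 members were lower in the diet group (background 43.6% lower and 56.4% higher), with a median difference of 2.08 points against 2.45 for all listed regions. The sign of that median was not stable, at -0.210 without control library 2 and -0.840 over members with at least 15 CpGs. In ELS against control 21 of 38 were lower (background 60.9 and 39.1%), with medians of -2.74 and -2.78. In ELS-HFD against control 35 of 44 were lower (background 70 and 30%), with medians of -3.41 and -3.06. In ELS-HFD against HFD 30 of 39 were lower (background 73.9 and 26.1%), with medians of -3.05 and -2.96. In ELS-HFD against ELS 23 of 31 were lower (background 61.9 and 38.1%), with medians of -3.73 and -2.75. The shares of lower members were 47.4, 55.3, 79.5, 76.9 and 74.2% in this order, and the plot of all differences shows members on both sides of 0 in every comparison.

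**Figure D2:**
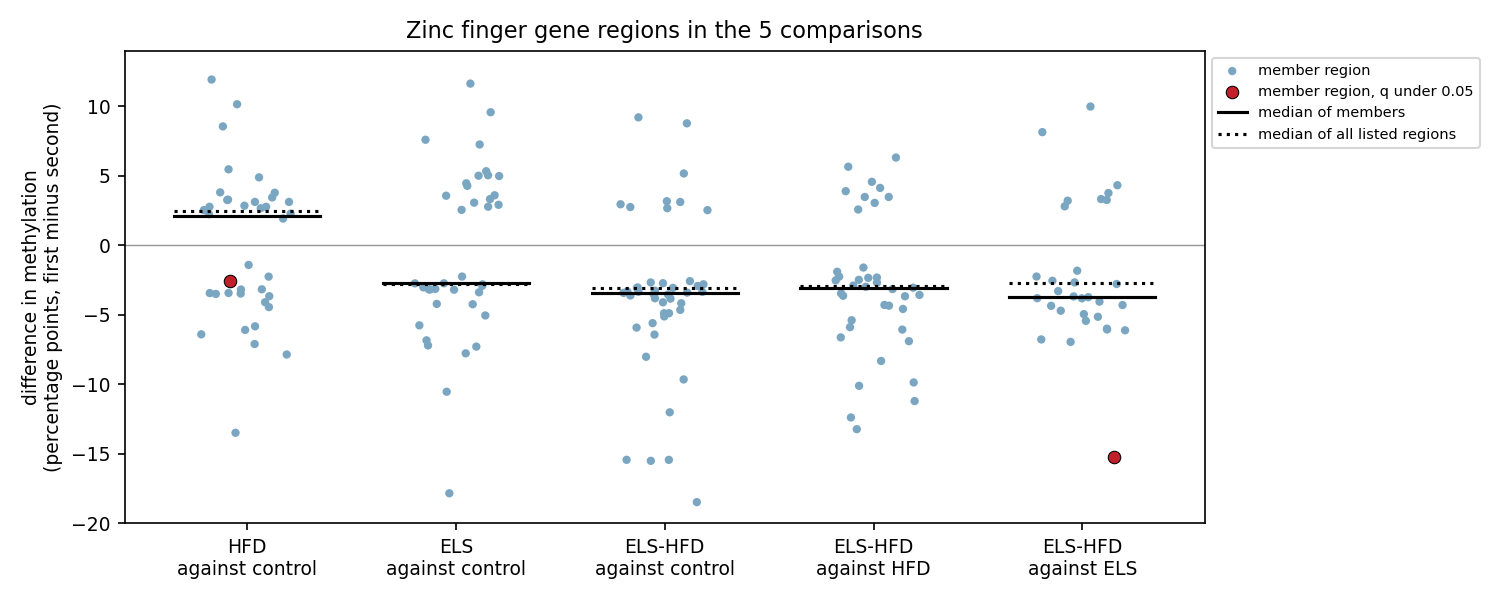
Difference in methylation (percentage points, first-named group minus second) of each zinc finger region in the 5 comparisons, with the median of members (solid line) and of all listed regions (dotted line). Red points are the 2 regions with a q-value under 0.05, at -2.56 points (Zfp503) and -15.2 points (Zfp219), and the gap around 0 comes from the listing.

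The library ranges of the groups did not overlap in 7 members of HFD against control (background 22.6%), 12 of ELS against control (25.7%), 21 of ELS-HFD against control (38.7%), 8 of ELS-HFD against HFD (23.9%) and 8 of ELS-HFD against ELS (24.1%). Out of 38, 38, 44, 39 and 31 members these are shares of 18.4, 31.6, 47.7, 20.5 and 25.8%. Leaving out 1 library shrank 131 of the 190 member differences (68.9%) by at least 1.5 times or changed their sign, beside 66.7% of all listed differences, and 16 of the 131 changed sign.

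Zfp219 encodes a transcriptional repressor that acts as a partner of SOX9 in mouse cartilage cells. It had the most listed regions of any member, 14 in 4 loci on chromosome 15, in all 5 comparisons. The called region (chr15:28402901-28403235, Rnor_6.0, 34 CpGs) lies 2978 bp from its start site, at the annotated end of the transcript ENSRNOT00000078475, which the tables pair with no named gene. There methylation was 11.9, 8.89 and 13.7% in the ELS-HFD libraries and 19.8, 27.1, 40.3 and 19.7% in the ELS libraries. All 3 ELS-HFD libraries were below all 4 ELS libraries, and the highest value came from 1 ELS library. The mean fell from 26.7 ± 9.71% to 11.5 ± 2.42%, a difference of -15.2 points (q-value 0.0155 in the authors' deposited table). The limma adjusted p was 0.104, and the difference ranged from -17.6 to -10.7 when 1 library was left out.

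Overlapping intervals of the same place were listed in the other comparisons with q-values of 1. In ELS-HFD against control (18 CpGs) the ELS-HFD libraries had 9.39, 5.12 and 8.17% and the controls 12.8, 20.2 and 36.1%, without overlap. The difference of -15.4 points ranged from -20.6 to -8.90 without 1 library, since the third control library stood far above the first. In ELS-HFD against HFD (12 CpGs) the values were 8.59, 4.30 and 8.58% beside 19.9, 24.1, 15.6 and 21.9%, a difference of -13.2 points, again without overlap (from -14.8 to -11.8 without 1 library; limma unadjusted p = 0.00161, adjusted p = 0.156). The ELS-HFD group was thus the lower of the pair in each comparison that included it. The same ELS-HFD libraries enter each of these comparisons, so they are not independent.

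Neither treatment alone separated from the controls at this place. ELS libraries had 21.9, 32.1, 43.7 and 19.1% and controls 9.86, 22.3 and 40.3% (difference 5.04 points, from -2.11 to 13.1 without 1 library). HFD libraries had 19.4, 24.3, 26.4 and 18.4% and controls 10.2, 21.1 and 45.5% (difference -3.47 points, from -11.2 to 6.47). The controls alone spanned more than either other group, as the plot of this place by library shows. The 2 diet comparisons share no library, and neither do the separation comparisons: diet gave -3.47 points without separation and -15.2 after it, and separation gave 5.04 points on chow and -13.2 on high-fat diet. The differences of -15.2 and -13.2 points share the ELS-HFD libraries, and those of -3.47 and 5.04 points share the controls. The intervals of these comparisons differ, and the difference between the 2 effects was not tested here.

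**Figure D3:**
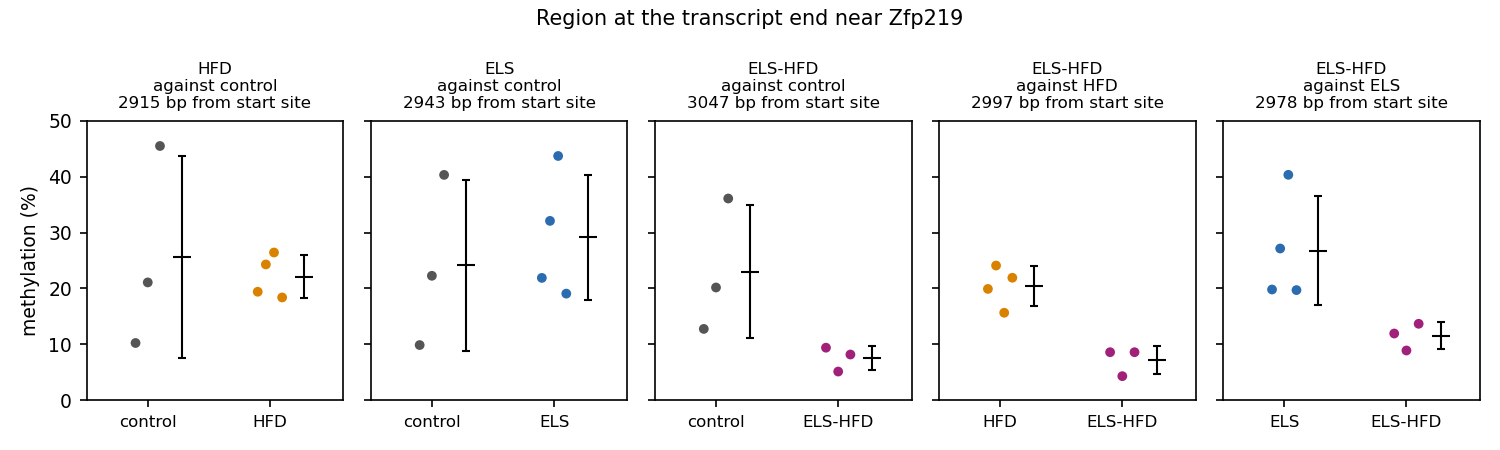
Methylation (percent) of the region at the transcript end near Zfp219 in each library of the 5 comparisons, with bars for mean ± SD; the intervals differ slightly and each panel gives its distance from the start site. ELS-HFD libraries lie between 4.30 and 13.7% in the 3 panels that include them, below all libraries of the other group, while controls range from 9.86 to 45.5% in the panels against HFD and ELS.

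The rest of the Zfp219 regions were less separated. In the last stretch of the called interval, from 28403133 or 28403144 to 28403235, the libraries overlapped, with ELS-HFD at 17 ± 3.71% and HFD at 21.3 ± 5.29% over 14 CpGs, and ELS-HFD at 16.7 ± 3.65% and control at 26.3 ± 19.6% over 12 CpGs. The second of these differences, -9.66 points, turned to 1.39 without the control library at 48.4%. Within exon 2 of 4 of the Zfp219 transcript, at 772 bp from the start, ELS libraries had 4.67, 5.61, 7.32 and 3.97% and ELS-HFD libraries 3.75, 0.890 and 1.64%. The ranges did not overlap, and the difference was -3.30 points (limma unadjusted p = 0.0143, adjusted p = 0.122). At the same spot HFD was at 1.48 ± 0.756% and control at 5.93 ± 3.9%, a difference of -4.45 points with overlapping libraries.

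Zfp503 (Nolz-1 in mouse) encodes a repressor active in the developing striatum. Its called region (chr15:2376286-2376349, 12 CpGs) lies in its last exon, exon 2 of 2, 1735 bp from the start site. HFD libraries had 0.174, 0.278, 0.245 and 0.676% and controls 1.91, 2.88 and 3.91%. All HFD libraries were below all controls, and all values were low. The mean fell from 2.90 ± 0.999% to 0.343 ± 0.226%, a difference of -2.56 points (q-value 0.0155 in the authors' deposited table; limma adjusted p = 0.116) that ranged from -3.05 to -2.05 without 1 library. A second, intergenic region 5959 bp before the start went the other way in a different comparison, ELS-HFD against control, at 4.39, 4.55 and 3.19% beside 0.962, 1.62 and 1.29% (q-value 1).

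Among the BTB genes, 25 of 34 regions (73.5%) were lower in the first-named group beside 62.4% of all listed regions. None was called (0.678% of all), and 6 (17.6%) had libraries without overlap beside 27.3% of all. The 34 regions repeat 12 loci of 9 genes and share libraries, so they are not independent. Zbtb45 had 4 overlapping regions in exon 2 of 3, 2445 to 2498 bp from its start on chromosome 1. In ELS-HFD against control the libraries were at 52.2, 57.1 and 47.9% beside 66.7, 69.8 and 67.0%, a difference of -15.4 points without overlap (from -17.8 to -13.2 without 1 library; limma unadjusted p = 0.0188, adjusted p = 0.142). In ELS-HFD against HFD they were at 54.7, 54.4 and 51.8% beside 63.9, 69.9, 67.0 and 58.5%, a difference of -11.2 points (from -13.3 to -9.52), also without overlap. Against ELS the difference was -6.78 points, and ELS against control gave -7.29 (from -9.76 to -4.24), both with overlapping libraries. ELS-HFD thus had the lowest mean wherever it was listed, and ELS library 2 the lowest value of its group in both ELS lists, at 45.2 and 51.1%. The same ELS-HFD libraries enter each ELS-HFD comparison.

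Zbtb47 had 10 regions, next after Zfp219. In exon 1 of 5, on chromosome 8 between 758 and 1031 bp from the start, all 6 differences were positive. The largest was in ELS against control, where ELS libraries had 71.3, 71.0, 69.2 and 70.9% and controls 65.4, 49.6 and 61.8%, a difference of 11.6 points without overlap (limma unadjusted p = 0.0429, adjusted p = 0.181; from 6.96 to 14.9 without 1 library). The 5 others, of 5.33 to 9.98 points, had overlapping libraries. Upstream, at 1828 to 1879 bp before the start, the 3 differences were -3.18, -5.92 and -3.67 points, all with overlap. Further upstream, 2253 bp before the start, a region with low methylation was higher in HFD than in control by 2.24 points, also with overlap.

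Zbtb7b (ThPOK, which directs T cells to the CD4 lineage in mice) had regions in exon 2 of 3, 12547 bp from its nearest start. HFD libraries had 19.3, 13.3, 18.8 and 15.6% and controls 23.4, 21.5 and 26.6%, a difference of -7.11 points, and ELS differed from control by -5.05 points, neither with overlap. ELS-HFD against control gave -3.61 points with overlap. All 3 comparisons share the control libraries. Zbtb7a (LRF, a repressor of fetal globin genes) was listed at its transcript end, where ELS-HFD libraries at 47.8, 46.5 and 44.7% lay below HFD libraries at 49.8, 53.0, 53.3 and 53.4%. The difference was -6.07 points, and limma gave an unadjusted p of 0.251.

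Zbtb16 (PLZF, needed for self-renewal of spermatogonial stem cells in mice) had 1 region, in intron 1 at 612 bp. ELS-HFD libraries had 11.2, 3.48 and 0.250% and ELS libraries 0.908, 0.270, 0.762 and 0.718%. The mean difference of 4.32 points dropped to 1.20 without the highest library. Zbtb49 was listed once, at 75.3 ± 2.92% in ELS-HFD and 78.3 ± 2.98% in control.

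Of 222 intervals listed with identical coordinates across tables so that all 14 libraries had a value, 5 were near zinc finger genes. The closest to a contrast between the diet effects was near Zfp169, a KRAB zinc finger gene, in intergenic sequence 51608 bp from its start on chromosome 17. The controls had 68.1, 64.2 and 73.8%, HFD 76.8, 89.4, 69.0 and 87.3%, ELS 80.9, 74.2, 73.2 and 75.5%, and ELS-HFD 70.1, 66.0 and 75.5%. High-fat diet and separation each had the higher mean over control (by 11.9 and 7.25 points), whereas ELS-HFD minus HFD was -10.1 points and ELS-HFD minus ELS was -5.44. Without 1 library the HFD difference from control ranged from 8.99 to 15.8 and the difference from HFD from -14.0 to -7.18. In a limma fit over all 4 groups the interaction was -1.39 ± 0.576 (SE) on the log2 scale with an unadjusted p of 0.0301 and an adjusted p of 0.464. At an unadjusted p under 0.05, 21 of the 222 intervals (9.46%) passed, and none passed after adjustment. A second place near Zfp169, 64985 bp from its start, gave 10.2 points in HFD against control, with 92.2, 96.9, 82.4 and 95.9% beside 94.5, 68.1 and 82.5%. That difference was 3.36 without the lowest control.

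**Figure D4:**
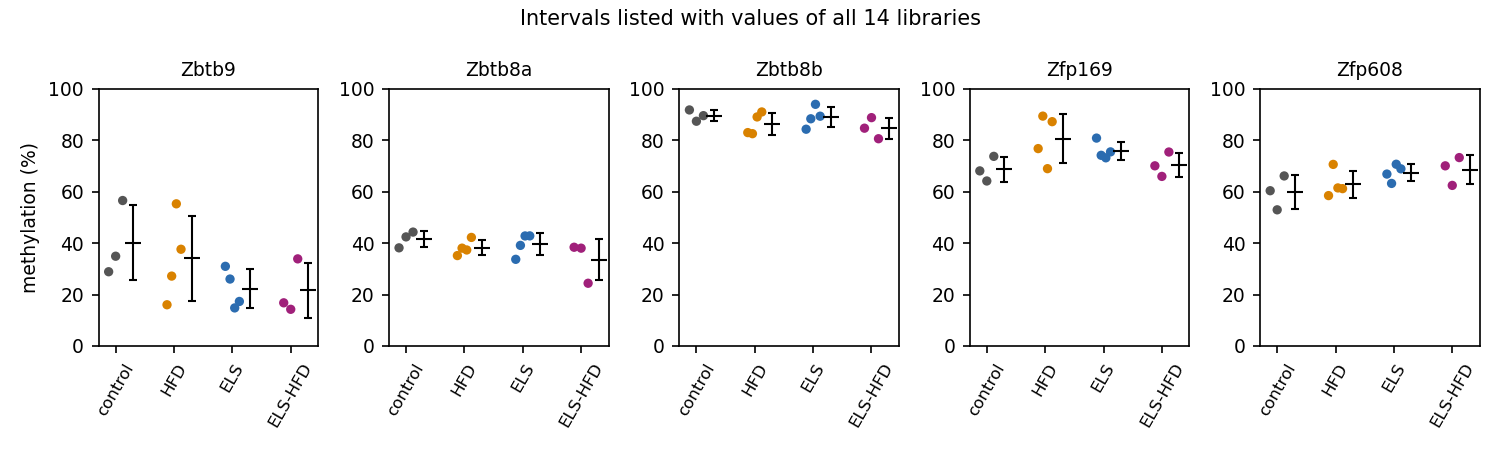
Methylation (percent) in every library of the 4 groups at the 5 zinc finger intervals that have values for all 14 libraries, with bars for mean ± SD. Compared groups overlap at every interval; Zfp169 has the highest mean in HFD (80.6%) and the lowest in controls (68.7%), and Zbtb9 has the widest spread.

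At the other 4 intervals the interaction had adjusted p = 0.995 in the limma fit. Zbtb9 held the widest member difference of any comparison, at a transcript end 2570 bp before its start on chromosome 20. Controls averaged 40.1 ± 14.6%, the HFD group 34.0 ± 16.7%, the ELS group 22.3 ± 7.54% and the ELS-HFD group 21.7 ± 10.7%. Libraries ranged from 14.3 to 56.6%, so the groups overlapped even at -18.5 points for ELS-HFD against control (from -24.6 to -10.3 without 1 library). ELS against control gave -17.8 points (from -23.5 to -9.62), and ELS-HFD against HFD gave -12.4 (from -18.5 to -5.30). Zfp608, in intergenic sequence 111079 bp away, had means of 59.9 ± 6.61, 63.0 ± 5.30, 67.4 ± 3.2 and 68.6 ± 5.56% in the same order. Zbtb8a (intron 2 of 4) had 41.7 ± 3.14, 38.2 ± 2.96, 39.6 ± 4.31 and 33.6 ± 7.99%, the last with 1 library at 24.4%, and Zbtb8b (exon 3 of 3) had means of 84.8 to 89.6%.

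At promoters 7 regions (31.8%) were lower and 15 higher in the first-named group, beside 60.8% lower among all listed promoter regions. The regions repeat loci: of the 13 genes, 7 had only higher regions, 4 only lower ones and 2 both, and all but Zkscan5 were below 15%. At Zfp354c, 463 bp before the start, ELS-HFD libraries were listed at 0% in all 3, ELS libraries at 0, 0.667, 1.05 and 0%, and controls at 8.01, 4.36 and 1.58%. Both treated groups lay below the controls without overlap. limma gave an unadjusted p of 0.00160 (adjusted 0.103) for ELS-HFD and 0.00344 (adjusted 0.0952) for ELS. The same 3 controls serve both comparisons, and the mean of 4.65 ± 3.23% rests largely on the first, at 8.01%. Without 1 library the differences of -4.65 and -4.22 points shrank to -2.97 and -2.54. No fold is given, because depth is unknown and 1 group is listed at 0.

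Promoters with higher values in treated groups included Zfp593, with 2.35, 4.05, 4.61 and 3.67% in ELS libraries and 0.577, 1.28 and 0.824% in controls (difference 2.78 points, no overlap, limma adjusted p = 0.0952). Its ELS-HFD libraries had 5.12, 3.68 and 1.05% (2.67 points, no overlap) and HFD was at 2.87 ± 2.31% (1.92 points, overlapping). The ELS-HFD library at 1.05% lay just above the highest control, at 0.931%. The same controls enter each of these Zfp593 differences. Zfp37, which is expressed in mouse male germ cells, had 2.46, 3.49 and 4.17% in ELS-HFD and 0.769, 0 and 0% in control (limma adjusted p = 0.103). Zfp384 was higher in ELS-HFD in 3 comparisons by 3.05 to 3.33 points, although 1 ELS-HFD library stood at 0.204 to 0.260%, within the range of the other groups. Zfp385a, a p53 cofactor in mice, was higher in ELS-HFD than in ELS and HFD by 2.80 and 3.48 points with overlap.

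Other promoters differed in direction. Zfp692 (in humans a repressor of gluconeogenic genes) had 3.37, 0.918, 1.62 and 7.28% in HFD and 0.682, 0 and 0.902% in control, and ELS-HFD had 0.756, 0.111 and 0.649% beside 2.01, 3.31, 1.48 and 4.25% in HFD. HFD was the higher group in both, without overlap, and its libraries enter both. Differences without overlap were also listed for Zfp839 (-2.68 points in ELS-HFD against control), Zfp830 (-2.81 in ELS against control) and the X-linked Zfp275 (-1.91 in ELS-HFD against HFD). Zfp451 (a SUMO ligase) was higher in HFD than in control by 2.27 points without overlap. Without 1 library the Zfp692 difference of 2.77 points in HFD against control was 1.44, that of Zfp839 was -1.66 and that of Zfp451 was 1.26. Zfp655 and Zfp105 had overlapping libraries, and 1 HFD library at 9.30% carried the Zfp655 difference of 2.53 points (0.524 without it).

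The Zkscan5 promoter was the exception in level. Its libraries ranged from 65.4 to 82.5%, and the differences of 4.89, -3.57 and 3.21 points in HFD against control, ELS-HFD against HFD and ELS-HFD against ELS came with overlapping libraries (limma adjusted p from 0.345 to 0.563).

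Several other members had low methylation in one group and a few percent in the other. Zfp367, in exon 1 of 5 at 270 bp, had 0.345, 0.313 and 0.326% in ELS-HFD and 1.91, 6.44, 3.14 and 4.34% in HFD, a difference of -3.63 points without overlap (limma unadjusted p = 0.000985, adjusted p = 0.139). HFD was also higher than control there, by 2.67 points, with overlap. Zfp362 had 0.364, 0.779, 0.507 and 0.263% in ELS and 6.3, 1.85 and 2.71% in control at 11938 bp before its start. That region had q = 0.271 in the authors' deposited table, while another 11095 bp before the start was higher in ELS by 3.32 points. Zfp512b, in exon 1, differed from control by -2.25 points in ELS and -2.73 in ELS-HFD, and Zfp598, in intron 1, by -2.49 in ELS-HFD against HFD, all without overlap. The second Zfp512b difference was -1.07 without the control library at 6.97%, and that of Zfp362 at 11938 bp, -3.14, was -1.80 without its highest control.

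Zscan2 had the low values in its last exon, exon 3 of 3. ELS-HFD libraries had 3.46, 3.00 and 2.10%, ELS libraries 6.09, 4.91, 8.06 and 8.57%, and controls 4.88, 7.05 and 6.84%. ELS-HFD lay below both without overlap (limma adjusted p = 0.104 and 0.142), and against HFD the difference was -2.69 points with overlap. The upstream region of Zscan2, 1970 bp before the start, was at 21.6 to 28.2% on average with overlapping libraries. Zscan20 was listed once, in exon 6 of 8, at 80.3 ± 2.08% in HFD and 84.0 ± 2.62% in control.

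**Figure D5:**
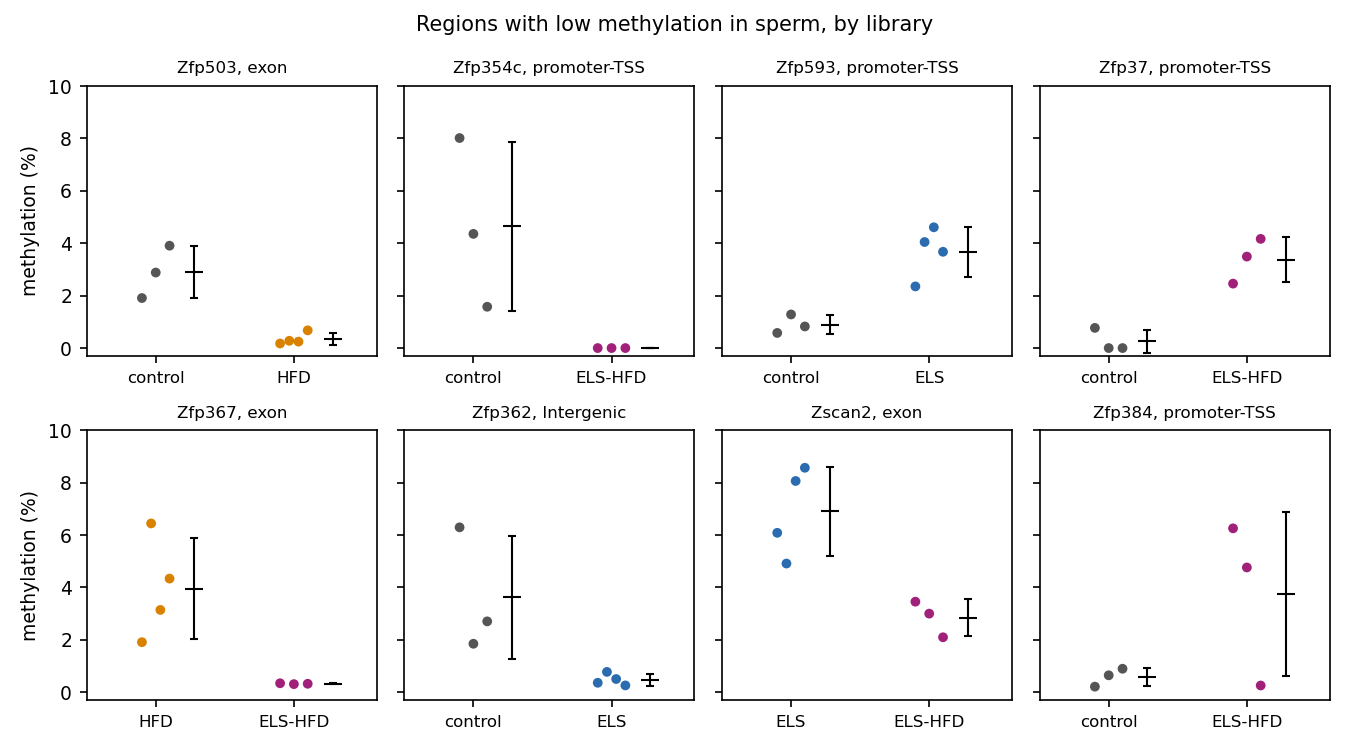
Methylation (percent) by library at 8 zinc finger regions with low methylation, each in the pair of groups named under its panel, with bars for mean ± SD. Groups do not overlap in the panels other than Zfp384, where 1 ELS-HFD library lies at 0.260%, and no value exceeds 10%.

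Zfp777 had 7 regions at 3 places on chromosome 4. In its own last exon ELS-HFD was at 1.32 ± 1.07% and control at 4.68 ± 2.0% without overlap, and 2776 bp before the start at 0.473 ± 0.213% and 3.74 ± 2.19%, also without overlap (limma adjusted p = 0.142 and 0.112). The third place, 18343 bp before the start, is exon 7 of 7 of another transcript and was far more methylated. There ELS-HFD libraries had 61.9, 52.0 and 38.5% and controls 68.4, 73.2 and 57.4%, a difference of -15.5 points with overlap (from -21.1 to -9.38 without 1 library). HFD and ELS against control gave -7.86 and -7.78 points (-4.47 and -3.29 at the least without 1 library), and these 3 comparisons share the controls. ELS-HFD against ELS gave -3.73 points, which turned to 0.621 without 1 library.

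Zfp395, in exon 3 of 4 of another transcript, had 46.4, 39.0 and 49.4% in ELS-HFD and 61.7, 51.4 and 57.7% in control, a difference of -12.0 points without overlap (from -14.8 to -9.06 without 1 library), and ELS against control gave -10.5 with overlap (from -13.3 to -7.70). Zfp428, 1051 to 1126 bp before its start, differed from control by -7.21 points in ELS and -5.12 in ELS-HFD without overlap, and by -6.41 in HFD with overlap. The highest ELS-HFD library there (36.70%) lay just below the lowest control (36.78%). The limma unadjusted p was 0.344 for ELS-HFD and 0.131 for ELS, and the same controls enter each Zfp428 difference. Zfp703, an oncogene of human breast cancer, had 14.4, 17.6, 8.18 and 14.7% in HFD and 25, 42.6 and 14% in control at an intergenic region, a difference of -13.5 points that was -5.81 without the highest control. In its last exon HFD was the higher group, at 4.18 ± 1.98% beside 1.41 ± 0.201% in control and 4.66 ± 2.10% beside 1.68 ± 0.726% in ELS-HFD, without overlap. Zfp638, 28365 bp before its start, had 22.1, 10.5 and 16.2% in ELS-HFD and 24.4, 21, 29.1 and 30.2% in HFD, with overlap (-9.87 points).

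Single libraries carried other members. At Zfp292 the third control library had 10 and 16.5% in the lists against ELS and ELS-HFD, while every other library was at 1.09% or less. At Zfp467 the same control library had 10.2 and 10.8% beside 0.579 to 2.14% in the other controls, and ELS-HFD libraries had 8.10, 4.51 and 0.810% beside at most 1.67% in ELS. The Zfp292 difference in ELS against control was -3.03 points and 0.155 without that library, and the Zfp467 difference in HFD against control was -3.43 and -0.324 without it.

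Regions were also listed for Zfp217 (a breast cancer oncogene in humans), Zfp787, Zfp281 (a regulator of pluripotent stem cells in mice), Zfp629, Zfp46, Zfp84, Zfp316 and Zfp536. Zfp217 had 1.33, 1.27 and 0.502% in ELS-HFD and 4.09, 2.24, 3.74 and 4.76% in ELS at 48606 bp (q-value 0.292 in the authors' deposited table, no overlap). Zfp787 had 5.86, 1.25 and 0% in ELS-HFD and 10.5, 6.25, 13.8 and 3.33% in ELS, with overlap. Zfp46, a gene with 1 exon, had 12.7, 9.78, 13.7 and 12.4% in ELS and 8.59, 5.99 and 6.81% in control, without overlap. Zfp397 differed by -6.95 points in ELS-HFD against ELS, -3.07 in ELS-HFD against control and 4.46 in ELS against control. Zfp444 differed by -6.84 points in ELS against control and 3.26 in ELS-HFD against ELS, and Znf768 by -6.06 in the latter. In ELS-HFD against HFD, Zfp111 differed by 4.57 points and Zfp385b by 3.48, beside -3.50 and -4.10 in HFD against control. Zfp579 differed by 2.95 points in ELS-HFD against control. Libraries overlapped at Zfp397, Zfp444, Znf768, Zfp111, Zfp385b and Zfp579. The 60 regions outside the rule for named genes, near 42 genes, had differences from -6.90 to 5.01 points, 45 (75.0%) lower and 15 higher beside 62.4% lower of all listed regions. All had a q-value of 1, and 19 (31.7%) had libraries without overlap beside 27.3% of all.

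Of the 99 loci, 50 were listed in 1 comparison, 24 in 2, 14 in 3, 8 in 4 and 3 in 5, and 25.3% were listed in at least 3 beside 17.5% of all loci. Between the separation comparisons, which share no library (ELS against control and ELS-HFD against HFD), 14 pairs of member regions overlapped, and 8 pairs (57.1%) had the same direction beside 69.8% of 463 pairs in general. They involve 34.2% and 33.3% of the 2 lists. The same-direction pairs were those of Zbtb45, Zbtb47, Zbtb7a, Zbtb9, Zfp608 and Zfp84, and the opposite ones those of Zfp169, Zfp217, Zfp219 and Zfp467. Between the diet comparisons (HFD against control and ELS-HFD against ELS) 10 pairs overlapped, involving 26.3% and 32.3% of the lists, and 7 (70.0%) had the same direction beside 55.3% of 376 pairs in general. Here the opposite pairs were those of Zfp169 and Zfp467. Pairs of one gene share libraries, so these counts are not independent.

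Zinc finger factors outside the symbol rule, such as the Klf, Sp, Gli, Zic, Ikzf and Prdm families, were counted alongside. Of 110 such genes 39 were listed, with 103 regions, of which 60 were lower and 43 higher, and the median difference was -2.59 points beside -2.76 for all listed regions. None was called by the q-value (background 0.678% of all listed regions) or passed limma's adjusted p of 0.05 (background 2 of 8555). Of 30 corepressors and partners of KRAB and BTB proteins, 3 were listed with 4 regions, 3 lower and 1 higher. None of these was called, beside the same background of 0.678%.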

How the data were processed

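Sperm DNA of 14 libraries was measured by reduced representation bisulfite sequencing; the series' design text describes amygdala RNA instead, so labels and tables were followed. The tools named, without versions, are Trim Galore, Bowtie and Bismark, with the build Rnor_6.0 (per the submitters' processing notes). The authors deposited 5 tables, 1 per comparison, in metilene format, with the methylation of each region in percent per library. The p-values and q-values are those of the authors' region caller, per the file headers. The fewest CpGs in a listed region is 10, and the smallest deposited difference is 2.5 percentage points. The deposited number reaches 15 CpGs in 30 bp near Zfp362, and whether it counts a CG once or on both strands is not stated. The promoter windows count each CG once, so the 2 numbers may not be alike. Annotation, nearest promoter and distance are as deposited, and depth is unknown.

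Group codes in the column names were read by their letters and numbers of columns, and columns carry no replicate numbers. Differences are the first-named group minus the second, from library values. A region was called at a q-value under 0.05. limma 3.58.1 in R 4.3.3 was fitted to log2((percent + 1) / (100 - percent + 1)) of all listed regions of a table, with Benjamini-Hochberg adjustment, and tested on simulated data. The fit over 4 groups at shared intervals was added after the data were seen. Values counted as without overlap are those where every library of one group lay beyond every library of the other.

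Members and lists were chosen with earlier results of these data known. Named genes were called regions, per comparison the 6 largest increases and 6 largest decreases, all promoter regions, loci listed in at least 3 comparisons, and up to 4 members per comparison with the smallest limma p. Zbtb49, Zfp46, Zfp292 and Zscan20, further regions of genes under the rule (Zfp362, Zfp512b, Zfp703, Zfp777 and Zscan2 among them), and Zfp281, Zfp316 and Zfp536 fall outside it and were chosen after their values were seen. Alternatives were a stricter and a looser q-value, a difference of at least 5 points, at least 15 CpGs, 5000 bp from the start, no sex chromosomes, other scales and offsets for limma, and leaving out each library.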

Additional observations from a re-analysis of the deposited data

Results flagged for a closer look

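In groups of 4 libraries, 101 sets of member values were checked for 1 library far from the other 3, and 4 (3.96%) stood apart; chance gives about 1 in 20. The first HFD library near Zbtb7a, at 49.8% beside 53.0, 53.3 and 53.4%, accounts for 2 of them, since the same values are listed against control and against ELS-HFD. Near Zfp219, in exon 2, 1 HFD library had 36.3% beside 23.2, 24.2 and 25.4%. In the list of ELS against control near Zfp574, 1 ELS library had 9.27% beside 6.94, 7.02 and 7.31%.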

How the results depend on the processing

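No paired analysis was possible because the table columns carry no replicate numbers. At a q-value under 0.01 the 2 called regions were lost (0 in HFD against control and 0 in ELS-HFD against ELS), and Zfp503 was also lost at 5 points or more (0) and at 15 CpGs or more (0). With an offset of 0.1 in the log-ratio, limma's adjusted p passed for 1 member in ELS-HFD against control, the Zfp354c promoter (adjusted p = 0.0402, from 0.0402 to 0.293 over the 10 settings). Members without overlap numbered 1 in HFD against control, 4 in ELS against control, 6 in ELS-HFD against control, 2 in ELS-HFD against HFD and 3 in ELS-HFD against ELS at 15 CpGs or more. At 5 points or more they numbered 1, 4, 4, 3 and 1 of 10, 15, 14, 13 and 10 members in the same order. Within 5000 bp of the start they numbered 11 in ELS-HFD against control and 4 in ELS-HFD against ELS. Members at an unadjusted limma p under 0.05 fell from 7 to 1 in HFD against control and from 17 to 3 in ELS-HFD against control on the percent scale. No background share is given at these settings, so these counts cannot be set against all listed regions. Leaving out 1 library moved the median member difference between -0.210 and 2.18 in HFD against control, -2.62 and -1.37 in ELS against control, -3.95 and -3.08 in ELS-HFD against control, -3.50 and -2.53 in ELS-HFD against HFD, and -4.52 and -2.42 in ELS-HFD against ELS. Over members with at least 15 CpGs that median turned to -0.840 in HFD against control and was -5.12 in ELS-HFD against HFD. Of the 130 named regions 14 changed sign under some alternative, no called one among them. Unknown depth limits every value, most of all those below a few percent.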
